A study of Homo sapiens with 6 samples.

Results

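The tubulin isotype genes examined here are 10 human genes that encode alpha- or beta-tubulin, the proteins from which microtubules are built. They are the alpha genes TUBA1A, TUBA1B, TUBA1C, TUBA4A and TUBA8 and the beta genes TUBB, TUBB2A, TUBB3, TUBB4A and TUBB4B. Transcript identifiers were matched to gene symbols, and these members are 10 of 12010 named genes, with 31 of 30504 named transcripts. The beta genes TUBB2B and TUBB6 were listed too but are not members. The members were chosen with earlier results of these data known. RNA sequencing was done on 92.1, an established human uveal melanoma line, in 3 samples given 0.1 µM LBH589 for 24 h and in 3 samples given the solvent DMSO for 24 h. LBH589, also called panobinostat, inhibits histone deacetylases, and the comparison addresses which isotypes make up the tubulin transcript pool after that inhibition. All 6 libraries come from the same line, and the labels do not say whether the samples of a group were separate cultures, so p-values reflect the spread among these samples alone, and that spread could be technical.

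Microtubules are polymers of a dimer of alpha- and beta-tubulin, and both proteins are needed to make it. Each is encoded by several genes whose products differ mostly in an acidic tail at the end of the protein, on the outer surface of the microtubule, where enzymes and microtubule-associated proteins act. TUBA1B and TUBA1C are broadly expressed alpha isotypes, while TUBA1A is prominent in developing neurons. TUBB and TUBB4B are broadly expressed beta isotypes, TUBB4B being prominent in cilia, while TUBB3 is used as a marker of neurons and TUBB2A and TUBB4A are abundant in brain. Cells also adjust tubulin mRNA to the amount of free tubulin, since a ribosome that is making tubulin can trigger decay of the mRNA it reads.

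The tail is encoded by the last stretch of coding sequence. The last 75 coding bases, stop codon included, are shown for the 4 beta genes whose difference between groups passed the test, because they show how these isotypes differ. They were read 5′ to 3′ from GENCODE release 29 transcripts, and capitals mark bases left unmatched when the coding sequence was aligned with that of TUBB.
TUBB: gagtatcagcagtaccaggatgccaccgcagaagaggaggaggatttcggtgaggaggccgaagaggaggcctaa
TUBB4B: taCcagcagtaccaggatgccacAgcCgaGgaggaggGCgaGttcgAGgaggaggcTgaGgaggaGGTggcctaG
TUBB3: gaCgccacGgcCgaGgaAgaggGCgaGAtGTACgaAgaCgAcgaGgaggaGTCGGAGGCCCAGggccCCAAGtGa
TUBB4A: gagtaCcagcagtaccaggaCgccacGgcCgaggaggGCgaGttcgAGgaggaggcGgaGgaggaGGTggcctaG

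In this window TUBB4B and TUBB4A each had 15 unmatched bases against TUBB, and TUBB3 had 36. Over the whole coding sequence TUBA1A was 97.2% identical to TUBA1B and 95.9% identical to TUBA1C. TUBB was less close to the other beta genes, at 84.4% identity to TUBB4B, 83.9% to TUBB4A and 81.7% to TUBB3. TUBA1A, TUBA1B and TUBA1C lie on chromosome 12, TUBA4A on chromosome 2, TUBA8 on chromosome 22, TUBB and TUBB2A on chromosome 6, TUBB3 on chromosome 16, TUBB4A on chromosome 19 and TUBB4B on chromosome 9.

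The libraries were given as FPKM, fragment numbers divided by transcript length and by the library's mapped fragments, so levels are per length and can be set beside each other between genes, while the absolute depth is unknown. The FPKM of all listed transcripts summed to 355148 to 367222 in LBH589 libraries and to 397174 to 422630 in DMSO libraries. Mitochondrial genes took 35.1% to 37.3% of that sum in LBH589 libraries and 35.8% to 45.7% in DMSO libraries. Of 7 melanocyte markers all were listed, 6 were lower and 0 higher in LBH589, and their summed level was 718 to 774 FPKM in LBH589 libraries, against 2530 to 2670 FPKM in DMSO libraries. Of 5 neuron markers, SNAP25 and MAP2 were listed and both were higher in LBH589, with summed levels of 23.1 to 32.1 FPKM in LBH589 libraries and 2.49 to 3.10 FPKM in DMSO libraries. Of 5 leukocyte and 4 endothelial markers 0 were listed, of 5 fibroblast markers 2 were listed and 1, COL1A1, was higher in LBH589, and KRT10 was the listed keratinocyte marker. The part of these other differences in the tubulin results was not tested, and in bulk RNA fewer cells of a type and less RNA per cell cannot be told apart.

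The composition of the tubulin transcript pool differed between the groups in both families. The summed FPKM of all members overlapped between the groups, but was lower in every LBH589 library when FPKM was multiplied by transcript length. After LBH589, TUBA1A, TUBB3, TUBB4B and TUBA4A rose, and TUBA1B, TUBA1C, TUBA8, TUBB and TUBB4A fell. The difference in TUBB2A did not pass the test. That is 9 of 10 members called, 4 higher and 5 lower, with limma on log2(FPKM + 1) at a Benjamini-Hochberg adjusted p below 0.05 over the 11520 genes tested. Of all genes tested, 48.8% were called, 27.2% higher and 21.6% lower. The groups did not overlap in 10 of 10 members, against 59.5% of all genes. These counts leave out the listed beta genes TUBB2B and TUBB6, which overlapped between groups. Neither was called (limma adjusted p = 0.892 and 0.911). The median log2 difference was -0.30 in the members and 0.08 over all genes tested, and the median absolute difference was 1.64 in the members and 0.57 over all genes. All 10 members were tested, but TUBA4A was listed at 0 in DMSO and so could be tested only because it was high in LBH589. TUBA8 averaged 0.348 FPKM in LBH589, below the 0.5 FPKM filter, and so could be tested only because of its DMSO level. With each transcript's FPKM multiplied by its length before summing, an alternative chosen after seeing the data, again 4 members were higher and 5 lower, against 28.5% and 21.5% of 11878 genes, and 10 of 10 did not overlap, against 60.5% of genes.

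**Figure D1:**
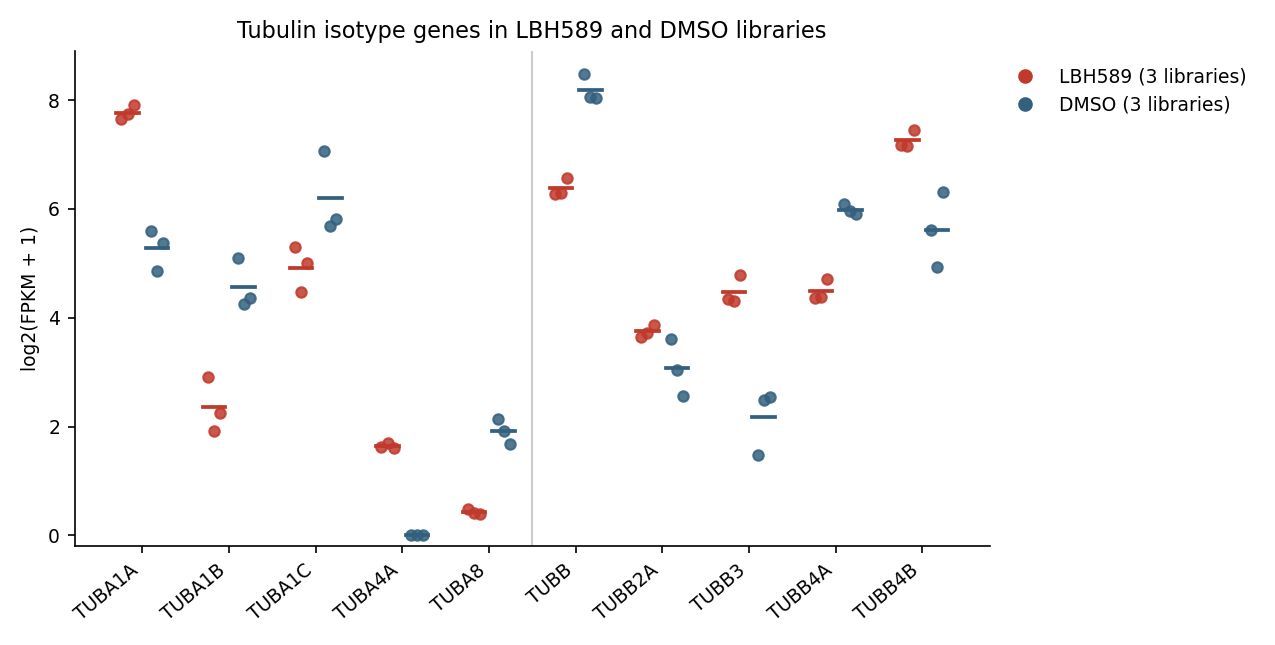
Level of each tubulin isotype gene in each library, as log2(FPKM + 1); points are libraries, bars are group means (n = 3 each), and LBH589 is drawn left of DMSO. The LBH589 points lie above the DMSO points for TUBA1A, TUBA4A, TUBB2A, TUBB3 and TUBB4B and below them for the other 5 genes.

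Among the alpha genes, TUBA1A was the most abundant in LBH589 and the only member of the family above 40 FPKM there. TUBA1A (ENSG00000167552.13) had 201, 213 and 240 FPKM in LBH589 libraries 1 to 3, against 47.4, 28.0 and 40.4 FPKM in DMSO libraries 1 to 3. Every LBH589 library lay far above every DMSO library, and the spread within each group was small beside the gap. TUBA1A averaged 218 ± 19.9 FPKM in LBH589 and 38.6 ± 9.83 FPKM in DMSO (SD, n = 3 each), so the LBH589 mean was 5.64 times the DMSO mean. The log2 difference on the log2(FPKM + 1) scale, which understates changes of low genes, was 2.49 (SE 0.20, limma adjusted p = 2.23e-04).

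TUBA1B and TUBA1C, the broadly expressed alpha isotypes, were lower after LBH589. TUBA1B (ENSG00000123416.15) had 6.53, 2.79 and 3.78 FPKM in LBH589 libraries, against 33.2, 18.1 and 19.6 FPKM in DMSO libraries. The groups were well apart, and the first library was the highest of its group in both. The log2 difference of TUBA1B was -2.21 (SE 0.33, limma adjusted p = 0.00242), with means of 4.37 ± 1.94 FPKM in LBH589 and 23.6 ± 8.32 FPKM in DMSO (SD, n = 3 each).

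TUBA1C (ENSG00000167553.15) had 38.2, 21.1 and 31.1 FPKM in LBH589 libraries, against 134, 50.4 and 55.5 FPKM in DMSO libraries. The groups did not overlap, but DMSO library 1 stood well above the other DMSO libraries. TUBA1C averaged 30.1 ± 8.58 FPKM in LBH589 and 79.9 ± 46.7 FPKM in DMSO (SD, n = 3 each; log2 difference -1.27, SE 0.41, limma adjusted p = 0.0451). That call was close to the threshold and ended without DMSO replicate 1 (log2 difference -0.83, adjusted p = 0.0502), without DMSO replicate 3 (0.0561) or without LBH589 replicate 1, 2 or 3 (0.0599, 0.131 and 0.100), and with library sums made equal (0.0776) or scaled to 1000000 (0.0790). With FPKM times transcript length, TUBA1C had values, in FPKM times kilobases, of 68.2, 59.8 and 55.6 in LBH589 libraries and 231, 150 and 156 in DMSO libraries, a log2 difference of -1.51 (SE 0.19, limma adjusted p = 0.00102).

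The other alpha genes were rare in both groups. TUBA4A (ENSG00000127824.13), an alpha isotype whose gene does not encode the final tyrosine, had 2.07, 2.24 and 2.03 FPKM in LBH589 libraries and was listed at 0 in every DMSO library. No fold change is given for it, since the DMSO group is at 0, and its limma adjusted p was 9.3e-05. TUBA8 (ENSG00000183785.14), a divergent alpha isotype, had 0.400, 0.324 and 0.319 FPKM in LBH589 libraries, against 3.42, 2.80 and 2.20 FPKM in DMSO libraries. All LBH589 values were thus below all DMSO values, with a log2 difference of -1.49 (SE 0.15, limma adjusted p = 5.25e-04).

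The order of the alpha genes differed between the groups. In LBH589 it ran TUBA1A, TUBA1C, TUBA1B, TUBA4A and TUBA8, and the ranges of no neighbours in it overlapped. In DMSO it ran TUBA1C, TUBA1A, TUBA1B, TUBA8 and TUBA4A, and there the ranges of TUBA1A and TUBA1B overlapped.

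Among the beta genes, TUBB, the leading one in DMSO, fell and TUBB4B rose. TUBB (ENSG00000196230.12) had 76.4, 77.9 and 94.0 FPKM in LBH589 libraries, against 357, 265 and 262 FPKM in DMSO libraries. Every LBH589 library was far below every DMSO library. TUBB averaged 82.8 ± 9.79 FPKM in LBH589 and 295 ± 54.1 FPKM in DMSO (SD, n = 3 each; log2 difference -1.81, SE 0.16, limma adjusted p = 3.29e-04).

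TUBB4B (ENSG00000188229.5) had 143, 143 and 173 FPKM in LBH589 libraries, against 47.7, 29.8 and 78.6 FPKM in DMSO libraries. The LBH589 libraries were all higher, and the DMSO libraries differed more among themselves. TUBB4B averaged 153 ± 17.6 FPKM in LBH589 and 52.0 ± 24.7 FPKM in DMSO (SD, n = 3 each), so the LBH589 mean was 2.94 times the DMSO mean, and the log2 difference was 1.64 (SE 0.34, limma adjusted p = 0.00859).

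TUBB3 (ENSG00000258947.6), the neuronal beta isotype, had 19.2, 18.7 and 26.5 FPKM in LBH589 libraries, against 1.77, 4.63 and 4.85 FPKM in DMSO libraries. The groups were far apart, with DMSO library 1 the lowest. The LBH589 mean was 5.73 times the DMSO mean, at 21.5 ± 4.35 FPKM in LBH589 and 3.75 ± 1.72 FPKM in DMSO (SD, n = 3 each; log2 difference 2.30, SE 0.32, limma adjusted p = 0.00187). With only its most abundant transcript the log2 difference of TUBB3 was 0.94 and the call ended (adjusted p = 0.419).

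TUBB4A (ENSG00000104833.11), abundant in brain, had 19.6, 19.9 and 25.2 FPKM in LBH589 libraries, against 67.0, 61.6 and 59.4 FPKM in DMSO libraries. It was lower in every LBH589 library, with a log2 difference of -1.50 (SE 0.13, limma adjusted p = 2.36e-04). So the isotypes of brain did not move as 1 group, since TUBB3 and TUBA1A rose and TUBB4A fell.

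TUBB2A (ENSG00000137267.5) had 11.6, 12.2 and 13.5 FPKM in LBH589 libraries, against 11.3, 7.22 and 4.90 FPKM in DMSO libraries. The groups did not overlap, but their ranges nearly touched, and the log2 difference of 0.68 (SE 0.27) did not pass the test (limma adjusted p = 0.0822). It passed without DMSO replicate 1 (log2 difference 0.95, adjusted p = 0.0102), and with library sums made equal (0.0468), scaled to 1000000 (0.0494) or made equal without mitochondrial genes (0.0480).

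In LBH589 the beta genes ran TUBB4B, TUBB, TUBB4A, TUBB3 and TUBB2A, and the ranges of TUBB4A and TUBB3 overlapped. In DMSO they ran TUBB, TUBB4A, TUBB4B, TUBB2A and TUBB3, and the ranges of TUBB4A and TUBB4B overlapped.

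**Figure D2:**
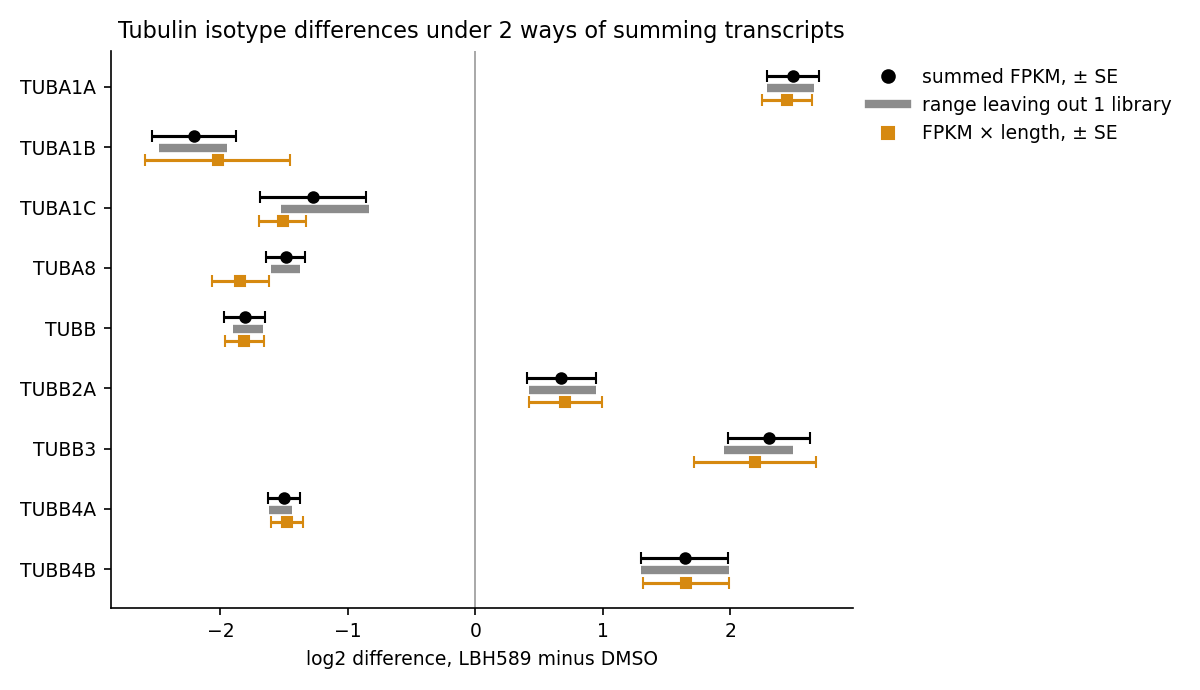
Log2 difference of each tubulin gene, LBH589 minus DMSO, on the log2(FPKM + 1) scale; black points with bars are the fitted difference ± SE (n = 3 each), grey lines the range when each library was left out, and orange points with bars the difference ± SE from FPKM times transcript length. TUBA4A is not drawn because it is listed at 0 in DMSO; TUBA1A, TUBB3 and TUBB4B lie to the right of 0 and TUBA1B, TUBA1C, TUBA8, TUBB and TUBB4A to the left, with TUBB2A closest to 0.

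Whether the total tubulin level differed depended on how transcripts were summed. The 10 genes summed to 518, 510.3 and 609.7 FPKM in LBH589 libraries, against 703, 467 and 527 FPKM in DMSO libraries. The groups overlapped, with a log2 ratio of means of -0.05 (exact two-sided permutation test, p = 0.8). With FPKM times transcript length, in FPKM times kilobases, they summed to 885, 902 and 1062 in LBH589 libraries, against 1567, 1137 and 1219 in DMSO libraries. On that scale the groups did not overlap, with a log2 ratio of means of -0.46 (exact two-sided permutation test, p = 0.1).

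Within that total the families moved in opposite directions. The alpha sum was 248, 239 and 277 FPKM in LBH589 libraries, against 218, 99.3 and 118 FPKM in DMSO libraries. All LBH589 libraries were higher, though DMSO library 1 was close to them, and the log2 ratio of means was 0.81, against 1.23 without DMSO replicate 1, 0.50 with FPKM times transcript length and 1.26 with only the most abundant transcript of each gene. With FPKM times transcript length the groups nearly touched, at 354 FPKM times kilobases in DMSO library 1 and 358 in LBH589 library 1. The beta sum was 270.2, 271 and 333 FPKM in LBH589 libraries, against 485, 368 and 409 FPKM in DMSO libraries. All LBH589 libraries were lower, and the log2 ratio of means was -0.53, against -0.86 with FPKM times transcript length. Each of these family sums had p = 0.1 in the exact two-sided permutation test, the smallest that 3 against 3 libraries allow.

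The alpha genes held 47.9%, 46.8% and 45.4% of the summed FPKM in LBH589 libraries, against 31.0%, 21.3% and 22.3% in DMSO libraries. The LBH589 libraries were thus near an equal split of alpha and beta transcript levels, and the DMSO libraries were mostly beta. The mean alpha share was 46.7% ± 1.24 in LBH589 and 24.9% ± 5.35 in DMSO (SD, n = 3 each), a difference of 21.8 percentage points. With FPKM times transcript length it was 39.7% ± 1.13 in LBH589 and 20.1% ± 2.18 in DMSO (SD, n = 3 each).

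Shares within each family take out differences in the family total. TUBA1A made up 81.0%, 88.9% and 86.6% of the alpha sum in LBH589 libraries, against 21.8%, 28.2% and 34.3% in DMSO libraries. TUBA1C made up 15.4%, 8.83% and 11.2% in LBH589 libraries, against 61.4%, 50.8% and 47.2% in DMSO libraries. TUBA1A thus led TUBA1C in every LBH589 library and TUBA1C led TUBA1A in every DMSO library, with mean differences of 57.4 points for TUBA1A and -41.3 points for TUBA1C. With only the most abundant transcript of each gene TUBA1A made up 83.0%, 97.6% and 88.1% in LBH589 libraries, against 23.6%, 53.1% and 64.5% in DMSO libraries. TUBA1C was then at 0 in DMSO libraries 2 and 3, so its groups overlapped (difference -15.7 points; exact two-sided permutation test, p = 1) and it led TUBA1A in DMSO library 1 alone. TUBA1B made up 1.72% ± 0.795 of the alpha sum in LBH589 and 16.7% ± 1.48 in DMSO (SD, n = 3 each). TUBA8 was at 0.137% ± 0.0230 in LBH589 and 2.08% ± 0.650 in DMSO (SD, n = 3 each), and TUBA4A was at 0.733% to 0.937% in LBH589 and listed at 0 in DMSO.

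In the beta family, TUBB4B made up 53.1%, 52.6% and 52.1% of the sum in LBH589 libraries, against 9.84%, 8.08% and 19.2% in DMSO libraries. TUBB made up 28.3%, 28.7% and 28.3% in LBH589 libraries, against 73.7%, 72.0% and 63.9% in DMSO libraries. The LBH589 libraries were close to each other, while DMSO library 3 had the most TUBB4B and the least TUBB of its group. TUBB4A made up 7.39% ± 0.173 in LBH589 and 15.0% ± 1.52 in DMSO, TUBB3 7.33% ± 0.562 in LBH589 and 0.936% ± 0.495 in DMSO, and TUBB2A 4.29% ± 0.220 in LBH589 and 1.83% ± 0.575 in DMSO (SD, n = 3 each). With only its most abundant transcript TUBB3 made up 2.68%, 0.753% and 3.68% in LBH589 libraries, against 0.0729%, 1.37% and 1.01% in DMSO libraries, and the groups overlapped (difference 1.55 points; exact two-sided permutation test, p = 0.3). From summed FPKM, all 11 shares, the alpha share of all members included, did not overlap between groups. Each had p = 0.1 in the exact two-sided permutation test, the smallest possible. Benjamini-Hochberg adjustment over the 11 shares leaves that value as it is, since all are equal. The shares of a family add up to its whole, so a rise in some makes others fall, and the 11 are not separate results.

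**Figure D3:**
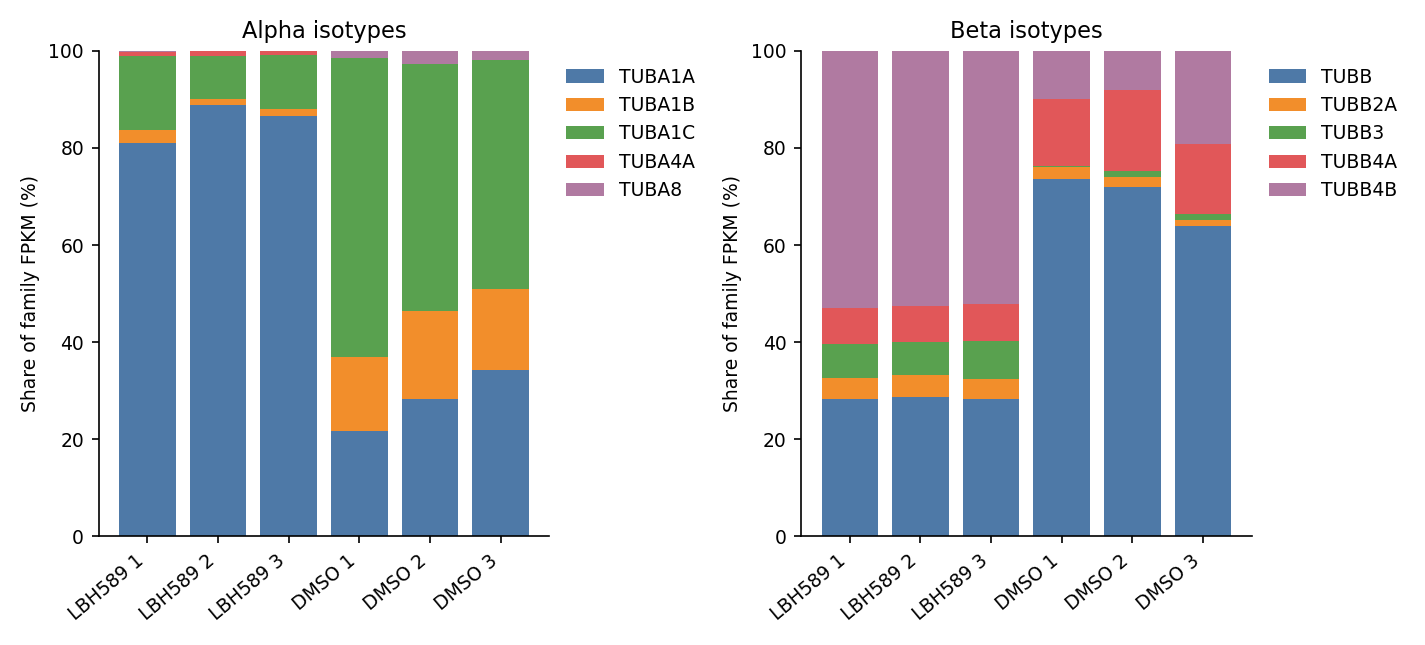
Share of each isotype in the summed FPKM of its family, in percent, as stacked bars for each library, alpha and beta families apart, LBH589 libraries left of DMSO libraries. TUBA1A fills 81.0% to 88.9% of the alpha bars in LBH589 and 21.8% to 34.3% in DMSO, and TUBB4B fills 52.1% to 53.1% of the beta bars in LBH589 and 8.08% to 19.2% in DMSO.

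The transcripts behind these sums were less even than the sums. Of 31 listed transcripts of the members 30 were tested, and 6 were called higher and 5 lower in LBH589. Of all 27042 transcripts tested, 8.62% were higher and 7.33% lower. The groups did not overlap in 16 of the 30, against 36.9% of all transcripts tested. Among the 6 higher, the TUBA4A transcript and a TUBB3 transcript of 903 bases were listed at 0 in DMSO. TUBB3-203 (0.400 FPKM) and a TUBA1A transcript of 650 bases (0.158 FPKM) averaged below 0.5 FPKM there. Among the 5 lower, a TUBA1B transcript of 565 bases and a TUBA8 transcript of 1700 bases averaged 0.296 and 0.168 FPKM in LBH589. All of these could be tested only because they were high in the other group. The member counts therefore cannot be set against those of all transcripts. Without DMSO replicate 3, or without any 1 of the LBH589 replicates, 3 member transcripts were called lower. The most abundant TUBA1A transcript, TUBA1A-207 of 1384 bases, had 175, 189 and 203 FPKM in LBH589 libraries, against 39.8, 21.5 and 36.4 FPKM in DMSO libraries. It carried most of the gene's level in each library and was called higher (limma adjusted p = 0.00277 over transcripts). The most abundant TUBB transcript, of 2670 bases, had 71.9, 52.8 and 81.8 FPKM in LBH589 libraries, against 349, 229 and 255 FPKM in DMSO libraries, and was called lower (limma adjusted p = 0.00503).

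TUBA1C was split between transcripts in a different way in each library. TUBA1C-202, of 1695 bases, had 31.7, 0.000431 and 23.7 FPKM in LBH589 libraries, against 122, 0 and 0 FPKM in DMSO libraries. TUBA1C-201, of 3001 bases, had 4.34, 19.5 and 4.43 FPKM in LBH589 libraries, against 7.06, 49.8 and 51.1 FPKM in DMSO libraries. Where the shorter transcript was at or near 0 the longer one was high, in LBH589 library 2 and in DMSO libraries 2 and 3. None of the 3 TUBA1C transcripts was called. With only its most abundant transcript the log2 difference of TUBA1C was 0.91 (limma adjusted p = 0.808), opposite in sign to that of the gene sum.

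TUBA1B and TUBB3 were split in like manner. TUBA1B-202, of 1627 bases, had 4.59, 0.356 and 1.86 FPKM in LBH589 libraries, against 26.1, 0.0307 and 0.0721 FPKM in DMSO libraries, so DMSO library 1 held nearly all of it in its group. TUBA1B-206, of 835 bases, had 1.95, 2.004 and 1.45 FPKM in LBH589 libraries, against 5.09, 16.5 and 17.9 FPKM in DMSO libraries, and was called lower (limma adjusted p = 0.0347). Of 6 listed TUBB3 transcripts, TUBB3-203 was called higher (limma adjusted p = 0.00576), with 6.16, 5.18 and 8.83 FPKM in LBH589 libraries, against 0.245, 0.101 and 0.854 FPKM in DMSO libraries. The other TUBB3 transcript called higher, of 903 bases, was at 1.82 to 2.76 FPKM in LBH589 and listed at 0 in DMSO. TUBB3-203 averaged 0.400 FPKM in DMSO, so both of these transcripts could be tested only because they were high in LBH589. TUBB3-201, of 1769 bases, had 6.75, 1.72 and 11.2 FPKM in LBH589 libraries, against 0.342, 4.47 and 4.0002 FPKM in DMSO libraries, and was not called (limma adjusted p = 0.495).

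**Figure D4:**
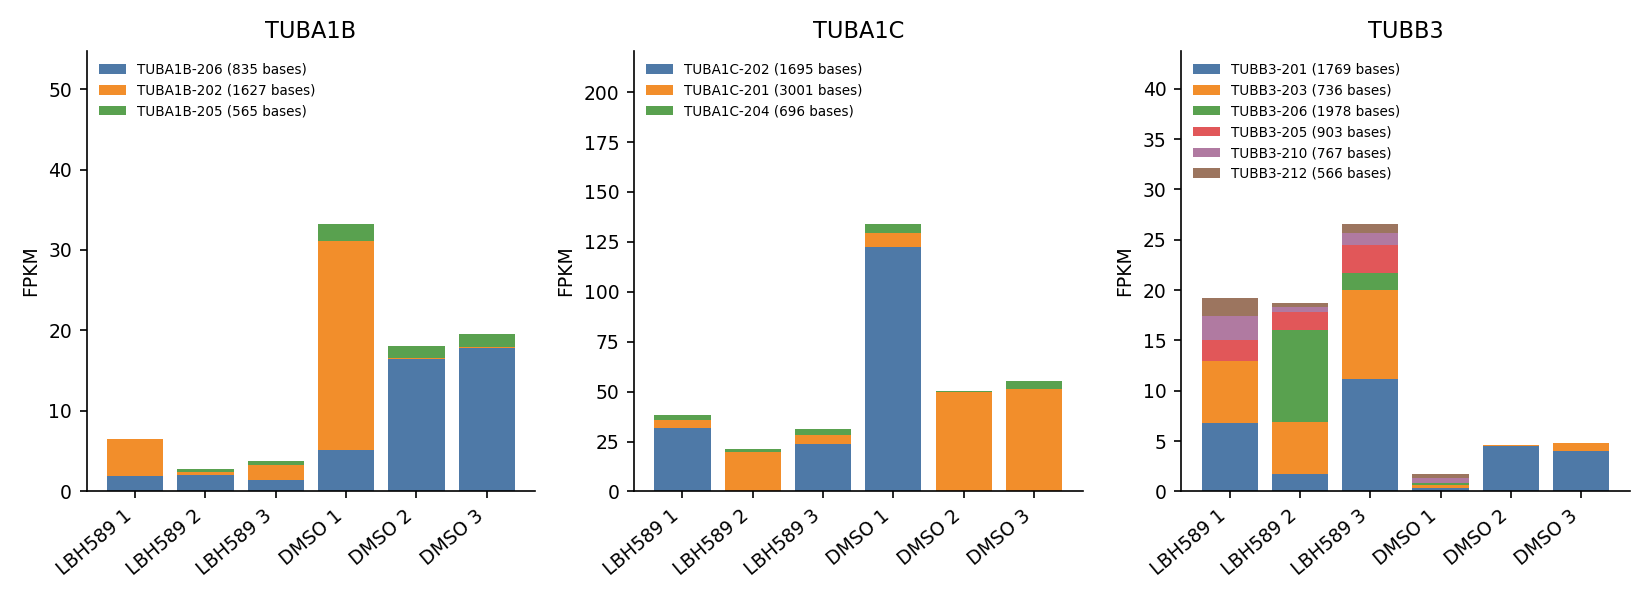
FPKM of each listed transcript of TUBA1B, TUBA1C and TUBB3 in each library, stacked to the gene's summed FPKM, LBH589 libraries left of DMSO libraries. The height of the TUBA1C bars is 21.1 to 38.2 FPKM in LBH589 and 50.4 to 134 FPKM in DMSO, and the transcript that fills them changes from library to library.

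Part of the sequence of most members is shared with other genes. Of the 50-base windows of the most abundant transcript, 57.5% in TUBA1A, 66.8% in TUBA1B and 45.0% in TUBA1C were found unchanged in another gene, and the gene sharing most was TUBA1B for TUBA1A and TUBA1C, and TUBA1C for TUBA1B. How the authors' counting divided such reads is not given in the sources used here, so the split of level between these 3 genes is uncertain. Their summed FPKM, which still depends on the lengths of the transcripts chosen, was 246, 236 and 275 FPKM in LBH589 libraries, against 214, 96.6 and 116 FPKM in DMSO libraries (log2 ratio of means 0.83; exact two-sided permutation test, p = 0.1). That ratio was 1.25 without DMSO replicate 1, 0.51 with FPKM times transcript length and 1.28 with only the most abundant transcript of each gene. With FPKM times transcript length the groups nearly touched, at 348 FPKM times kilobases in DMSO library 1 and 353 in LBH589 library 1.

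The beta genes TUBB (18.2%), TUBB4A (5.99%) and TUBB4B (9.89%) shared few windows, and those of TUBB were shared with 0 other members. TUBB2A shared 65.5%, mostly with TUBB2B, a near copy that had 5.71, 2.46 and 1.88 FPKM in LBH589 libraries, against 3.49, 3.20 and 2.09 FPKM in DMSO libraries. TUBB2B overlapped between groups and was not called (limma adjusted p = 0.892). TUBB3 shared 89.4% with AC092143.1, an annotated gene that reads through from MC1R into TUBB3 and is not analysed here, and MC1R itself averaged 0.421 ± 0.262 FPKM in LBH589 and 1.14 ± 0.725 FPKM in DMSO (SD, n = 3 each; limma adjusted p = 0.141). TUBA8 shared 77.5% with its neighbour PEX26, which averaged 0.861 ± 0.0112 FPKM in LBH589 and 1.78 ± 0.134 FPKM in DMSO (SD, n = 3 each) and was also lower (limma adjusted p = 0.0065), so the values of TUBA8 and PEX26 are uncertain. In GENCODE release 29, 9 of 10 members, all but TUBB2A, overlap another annotated gene on the opposite strand, and the sources used here do not say whether reads were counted by strand, so reads from such places cannot be told apart. TUBA1A and TUBA1C overlap each other in this way.

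The other genes of tubulin biology were taken as 7 lists of 101 genes, of which 88 were listed and 87 tested. Of the 87 tested, 24 were higher and 15 lower in LBH589, where 27.2% and 21.6% of all genes tested were. Among the 24 are 7 lattice-binding or stathmin genes with a DMSO mean below 0.5 FPKM. These could be tested only because they were high in LBH589, so the 24 cannot be set against all genes. Named genes are up to 3 per list with the smallest adjusted p, and others are named where a direction held 5 or fewer.

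Of the remaining tubulin family genes that were tested, none was called. Of 10 genes TUBB2B, TUBB6, TUBD1 and TUBE1 were listed and tested. With limma 0 were higher and 0 lower, against 27.2% and 21.6% of all genes, with a median log2 difference of 0.01. So few genes cannot show that the family did not differ. TUBB6, a broadly expressed beta isotype, averaged 6.52 ± 2.93 FPKM in LBH589 and 6.39 ± 0.273 FPKM in DMSO (SD, n = 3 each; limma adjusted p = 0.911). TUBD1, the delta-tubulin of centrioles, averaged 6.23 ± 0.538 FPKM in LBH589 and 3.92 ± 1.56 FPKM in DMSO (SD, n = 3 each; limma adjusted p = 0.0815). The groups of TUBD1 did not overlap, and it passed the test without DMSO replicate 3 (0.00900) and with library sums made equal (0.0388) or scaled to 1000000 (0.0409).

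Of 21 genes of tubulin folding, which act before the alpha-beta dimer can form, 0 were higher and 6 lower. Of all genes tested 27.2% were higher and 21.6% lower. The median log2 difference of the folding genes was -0.20. PFDN4, a subunit of prefoldin, which hands new tubulin to the chaperonin, averaged 27.4 ± 2.47 FPKM in LBH589 and 60.8 ± 4.38 FPKM in DMSO (SD, n = 3 each; log2 difference -1.12, limma adjusted p = 3.81e-04). CCT5, a subunit of the chaperonin that folds tubulin, averaged 107 ± 6.09 FPKM in LBH589 and 176 ± 12.7 FPKM in DMSO (SD, n = 3 each; limma adjusted p = 0.00191). CCT6A, another subunit, averaged 60.9 ± 1.11 FPKM in LBH589 and 96.1 ± 5.28 FPKM in DMSO (SD, n = 3 each; limma adjusted p = 0.00139), and with only its most abundant transcript its call ended (0.103).

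Of 18 genes whose products modify tubulin, 15 were tested, and 5 were higher and 1 lower, against 27.2% and 21.6% of all genes. Their median log2 difference was 0.31. AGTPBP1, which trims glutamates from tubulin tails, averaged 38.4 ± 2.21 FPKM in LBH589 and 16.5 ± 0.751 FPKM in DMSO (SD, n = 3 each; log2 difference 1.17, limma adjusted p = 1.91e-04). TTLL7, which adds glutamates to beta-tubulin tails, averaged 8.43 ± 1.43 FPKM in LBH589 (SD, n = 3) and had 0, 0.369 and 1.71 FPKM in DMSO libraries (limma adjusted p = 0.00207). VASH1, which removes the final tyrosine of alpha-tubulin, averaged 3.50 ± 0.0580 FPKM in LBH589 and 1.60 ± 0.136 FPKM in DMSO (SD, n = 3 each; limma adjusted p = 0.00225), and its partner SVBP was higher as well (0.0102), as was TTLL5, another tail-glutamylating enzyme (0.0446). The TTLL5 call ended without any 1 library except DMSO replicate 3 (adjusted p = 0.0573 to 0.132), with only the most abundant transcript (0.247), and with medians made equal (0.0682), quantile normalization (0.0572) or sums made equal without mitochondrial genes (0.0595).

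The gene of this list that was lower was TTL, which puts the tyrosine back, with 5.54 ± 0.113 FPKM in LBH589 and 8.98 ± 0.554 FPKM in DMSO (SD, n = 3 each; limma adjusted p = 0.0041). HDAC6, the deacetylase that acts on alpha-tubulin, was named after its values were seen, as were TTL, SVBP and TTLL5. It averaged 4.44 ± 0.678 FPKM in LBH589 and 2.99 ± 1.17 FPKM in DMSO (SD, n = 3 each), and the groups overlapped (limma adjusted p = 0.139). HDAC6 passed as higher without DMSO replicate 1 (0.0159) and with FPKM times transcript length (0.0165), while with only its most abundant transcript its log2 difference was -0.052 (adjusted p = 0.904).

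Of 18 lattice-binding microtubule-associated proteins and stathmins, 14 were tested, and 11 were higher and 2 lower, with a median log2 difference of 1.15 that 2 genes listed at 0 in DMSO lie above. Of the 11, 7 had a DMSO mean below 0.5 FPKM and could be tested only because they were high in LBH589, so the count cannot be set against that of all genes. MAP1B, a microtubule-associated protein of growing axons, averaged 7.97 ± 0.277 FPKM in LBH589 and 0.0717 ± 0.0318 FPKM in DMSO (SD, n = 3 each; log2 difference 3.07, limma adjusted p = 2.4e-05). MAP1A, its relative in mature neurons, averaged 3.54 ± 0.238 FPKM in LBH589 and 0.114 ± 0.0502 FPKM in DMSO (SD, n = 3 each; limma adjusted p = 6.7e-05). STMN2, a neuronal stathmin, averaged 3.20 ± 0.256 FPKM in LBH589 (SD, n = 3) and was listed at 0 in DMSO.

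The 2 lower genes were STMN1 and MAP4, named after their values were seen. STMN1, which binds free tubulin dimers, averaged 84.4 ± 25.7 FPKM in LBH589 and 164 ± 23.5 FPKM in DMSO (SD, n = 3 each; limma adjusted p = 0.0162), and its call ended without DMSO replicate 2 (0.0534) or with only its most abundant transcript (0.206). MAP4, the main microtubule-associated protein outside neurons, averaged 19.3 ± 1.69 FPKM in LBH589 and 28.9 ± 1.59 FPKM in DMSO (SD, n = 3 each; limma adjusted p = 0.00525).

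Of 19 genes that act at microtubule ends or sever them, 18 were tested. Of these 6 were higher and 3 lower, against 27.2% and 21.6% of all genes, with a median log2 difference of 0.25. MAPRE3, an end-binding protein of brain, averaged 22.3 ± 1.90 FPKM in LBH589 and 3.86 ± 0.346 FPKM in DMSO (SD, n = 3 each; log2 difference 2.26, limma adjusted p = 4.8e-05). Its broadly expressed relative MAPRE1 was lower, at 58.5 ± 1.23 FPKM in LBH589 and 71.7 ± 4.40 FPKM in DMSO (SD, n = 3 each; limma adjusted p = 0.0354), but its call ended without any 1 library except DMSO replicate 2 (0.0525 to 0.1203), with library sums made equal (0.415), scaled to 1000000 (0.409) or made equal without mitochondrial genes (0.0671), with quantile normalization (0.0906) and without trend and robust moderation (0.0589). KATNA1, the severing subunit of katanin, averaged 23.4 ± 1.15 FPKM in LBH589 and 8.92 ± 1.41 FPKM in DMSO (SD, n = 3 each; limma adjusted p = 4.66e-04). SLAIN1, a plus-end protein, averaged 15.9 ± 4.61 FPKM in LBH589 and 0.537 ± 0.249 FPKM in DMSO (SD, n = 3 each; limma adjusted p = 1.58e-04), and its call ended with only its most abundant transcript (0.179). CLIP1, which tracks plus ends, and FIGN, a severing enzyme, were the other lower genes (limma adjusted p = 0.00445 and 0.00167), and these and MAPRE1 were named after their values were seen. The CLIP1 call ended with only its most abundant transcript (0.199).

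Of 11 genes of the gamma-tubulin ring complex, which starts new microtubules, 2 were higher and 3 lower, against 27.2% and 21.6% of all genes. Their median log2 difference was -0.30. The gamma-tubulin genes themselves moved apart. TUBG2, the less widely used of the pair, averaged 5.95 ± 0.451 FPKM in LBH589 and 2.56 ± 0.441 FPKM in DMSO (SD, n = 3 each; log2 difference 0.97, limma adjusted p = 0.00207). TUBG1, named after its values were seen, averaged 11.02 ± 2.43 FPKM in LBH589 and 22.01 ± 5.89 FPKM in DMSO (SD, n = 3 each; log2 difference -0.93, limma adjusted p = 0.0171), and its call ended without LBH589 replicate 1 (0.0502) or 2 (0.0548). The ring subunits MZT1 and TUBGCP4 were lower (limma adjusted p = 0.0101 and 0.0127), the TUBGCP4 call ending without LBH589 replicate 1 (0.0508), and TUBGCP2, another ring subunit named after its values were seen, was higher (0.0380). The TUBGCP2 call ended without any 1 library except DMSO replicate 1 (0.0893 to 0.108) and with only its most abundant transcript (0.671).

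Of 4 genes of the machinery that degrades tubulin mRNA, 0 were higher and 0 lower with limma, against 27.2% and 21.6% of all genes. Their median log2 difference was -0.11, and 4 genes are too few to show that the machinery did not differ. SCAPER, which links the ribosome-bound TTC5 to the CCR4-NOT deadenylase, averaged 5.74 ± 1.07 FPKM in LBH589 and 3.81 ± 2.33 FPKM in DMSO (SD, n = 3 each; limma adjusted p = 0.209). It passed the test without DMSO replicate 3 (0.0115) and with FPKM times transcript length (0.0485), and CNOT1, the scaffold of the deadenylase, passed as lower with only its most abundant transcript (0.0362).

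**Figure D5:**
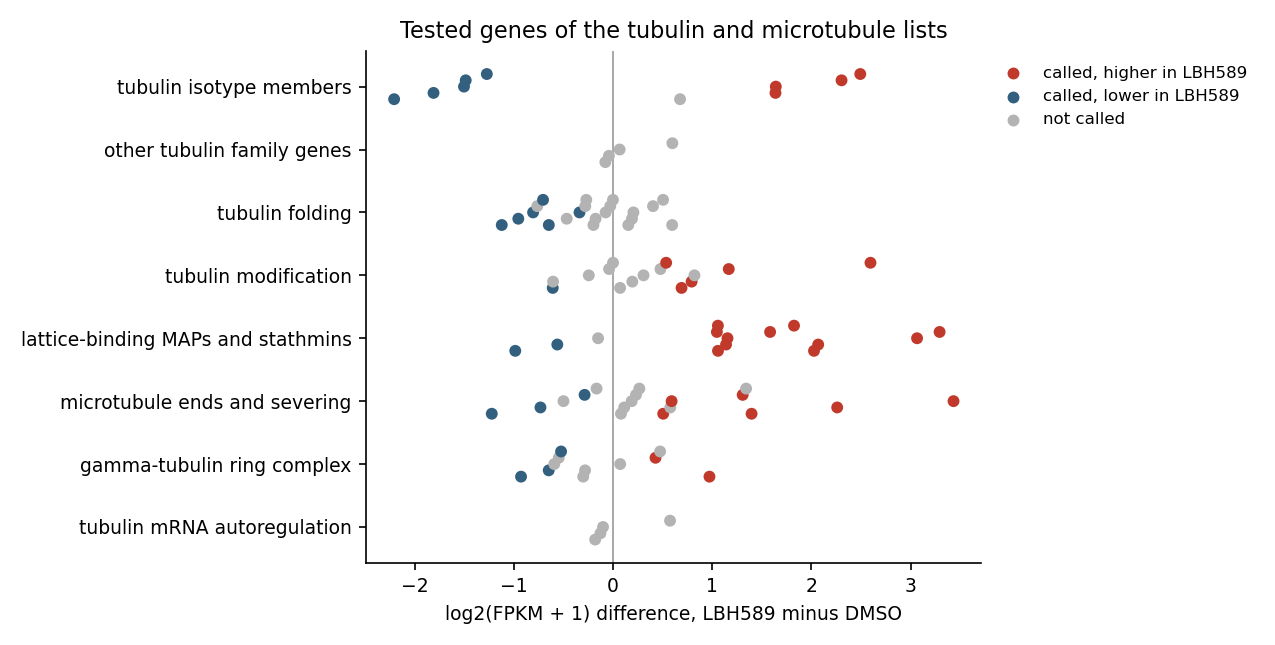
Log2 difference of each tested gene, LBH589 minus DMSO, on the log2(FPKM + 1) scale, for the tubulin isotype genes and the 7 other lists; each point is a gene, coloured by whether it was called higher, lower or not called at an adjusted p below 0.05. The isotype genes lie on both sides of 0, and the folding genes called lie below 0. Of 14 lattice-binding proteins and stathmins 11 are called higher. Of those 11, 7 had a DMSO mean below 0.5 FPKM and could be tested only because they were high in LBH589. Genes listed at 0 in DMSO are drawn at their fitted difference.

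The genes whose profiles were most like the family sums were found over the 6 libraries among 6858 tested genes that averaged 5 FPKM or more. Likeness was the root mean square difference of centred log2(FPKM + 1) profiles. Nearest to the alpha sum were GOLGA3 (0.129), CYB5R3 (0.129) and HIST1H2BK (0.130), which like it were higher in every LBH589 library than in any DMSO library. Nearest to the beta sum were NTMT1 (0.0427), PPIB (0.0484) and VAV2 (0.0495), which were lower in every LBH589 library.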

How the data were processed

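The authors deposited 1 table per library with an FPKM value per transcript, on hg19 with Bowtie 0.12.2, per the submitters' processing notes; the quantifier, the annotation and the use of strand were not given in the sources used. The tables list 30624 transcripts, whose highest group mean is at least 0.5 FPKM. Transcripts were named through GENCODE release 29, and all 31 member transcripts had the same version there. FPKM was summed per gene. Genes averaging 0.5 FPKM or more over all libraries entered limma 3.58.1 (run in R 4.3.3 with statmod 1.5.0) as log2(FPKM + 1), with trend and robust moderation and Benjamini-Hochberg adjustment over all 11520 genes, or over 27042 transcripts. Sums and shares were compared between groups by two-sided exact permutation (scipy 1.17.1). The script was tested on simulated data. No depth or counting interval can be given, since the tables hold no counts.

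Shared windows are exact 50-base matches on the same strand to transcripts of other genes. All members were named whatever their values, with up to 3 genes of each other list by smallest adjusted p and the 3 genes most like each family sum. The members and lists were chosen with earlier results of these data known. Alternatives were other scalings, filters, pseudocounts, thresholds, transcript choices, a replicate block and leaving out each library; FPKM times transcript length and the sum of TUBA1A, TUBA1B and TUBA1C were added after seeing the data. The coding ends of the alpha genes are not reported here.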

Additional observations from a re-analysis of the deposited data

How the results depend on the processing

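The counts of 4 members higher and 5 lower stayed within 1.5 times in each of 19 alternatives, and the fold changes of TUBA1A, TUBA1B, TUBA4A, TUBA8, TUBB, TUBB4A and TUBB4B kept their direction and side of the threshold in each alternative run. With a mean of at least 5 FPKM required, 1844 genes in place of 3132 were called higher, and 13 in place of 24 other microtubule genes; at an adjusted p below 0.01, 8 in place of 15 of those were lower. Same-numbered libraries deviated with correlations of -0.10, 0.02 and -0.04, and differently numbered ones with -0.05 to 0.08. No pairing by replicate number was thus visible, which does not show that the samples were unpaired. With the replicate block, 2 in place of 5 member transcripts were called lower, and among the genes named in the report with a fold change in these alternatives the calls of TTLL5 (adjusted p = 0.0504), MAPRE1 (0.0915) and TUBGCP2 (0.0829) ended; leaving out each library gave 3 to 4. Making library sums equal moved the median log2 difference of all genes by 0.15 and scaling them to 1000000 by 0.20, the other scalings by less than 0.1. With only the most abundant transcript, TUBA1C turned to 0.91, SCAPER to -0.025 and CNOT11 to 0.020, and the log2 ratio was 1.26 for the alpha sum and 1.28 for TUBA1A, TUBA1B and TUBA1C together. Share differences in points were then 42.5 for TUBA1A, -24.3 for TUBA1B, -15.7 for TUBA1C, 1.01 for TUBA4A, -3.58 for TUBA8, 1.55 for TUBB3, 45.7 for TUBB4B and 28.2 for the alpha share of all members. With FPKM times transcript length they were -7.66 for TUBA1B, -51.4 for TUBA1C, 1.22 for TUBA4A, -36.7 for TUBB, 4.13 for TUBB3, -5.18 for TUBB4A and 35.5 for TUBB4B, and the log2 ratio was -0.86 for the beta sum and -0.46 for all members. Genes that did not pass the test in the report changed sign: TUBB2B was -0.051 with quantile normalization and -0.30 to 0.31 leaving out each library, TUBE1 0.012 with equal sums and -0.46 to 0.37, TUBB6 0.11 with equal sums, 0.12 with scaled sums, 0.080 with FPKM times transcript length and -0.34 to 0.16 leaving out each library, HDAC6 -0.052 with only the most abundant transcript, CNOT1 -0.33 to 0.094 leaving out each library, and CNOT11 0.070 with equal sums and 0.072 with scaled sums. The cause of these changes was not tested. The tables give no counts, so what depth limits cannot be stated.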
